A study of Mus musculus with 39 samples.

Results

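Transcripts of 9 megakaryocyte and platelet genes were followed in mouse spleen: Pf4, Ppbp, Itga2b, Itgb3, Gp1ba, Gp1bb, Gp9, Treml1 and Vwf. They were taken by symbol from the 54735 genes of the spleen table, all 9 were found, and all 9 passed the filter on low values (a mean normalised read count of at least 10). Megakaryocytes are large cells of bone marrow and, in mice, of the splenic red pulp, which shed platelets into the blood. Platelets carry RNA and granule proteins from the megakaryocyte, stick to exposed vessel wall through the receptor complex of Gp1ba, Gp1bb and Gp9, which binds von Willebrand factor, and join to each other through the integrin made of the Itga2b and Itgb3 chains, which binds fibrinogen. Pf4 and Ppbp encode chemokines packed in alpha granules, Treml1 encodes a receptor brought to the surface when platelets are activated, and Vwf, also made by endothelium, encodes von Willebrand factor.

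The spleens came from C57BL/6 mice aged 4 weeks. There were 5 libraries of SXR/PXR knockout given PCB-153, a persistent polychlorinated biphenyl, 5 of knockout given the vehicle DMSO, 5 of wild type given PCB-153 and 4 of wild type given DMSO. The exposure, at about 54 µg per kg per day, began around birth and lasted until collection. SXR/PXR is a nuclear receptor that senses foreign compounds and is encoded by Nr1i2. No litter is named in the labels, nor whether each library was a separate animal, so the p-values speak only for the spread among these libraries.

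Nr1i2 ran against the genotype labels. It had 43.0 to 57.0 normalised reads in knockout PCB-153 libraries, 42.9 to 62.8 in knockout vehicle libraries, 0 to 2.2 in wild-type PCB-153 libraries and 0 to 2.3 in wild-type vehicle libraries. Whether the genotype labels were exchanged was not tested, and if they were, every genotype direction given here would be turned round. The knockout libraries are therefore called labelled knockout throughout, and every genotype direction below follows the label. Spleen libraries held 16.10 to 29.52 M reads (median 19.64 M). Some stood apart. Summed pancreatic enzyme counts were 62915 in replicate 4 and 8119 in replicate 1 of the labelled knockout PCB-153 group, against 487 to 871 in the other spleens. Summed hepatocyte counts reached 12469 in replicate 4 of the labelled knockout vehicle group and 4173 in replicate 1 of the wild-type PCB-153 group. They were 1579 in replicate 1 and 595 in replicate 4 of the wild-type vehicle group, against 45 to 324 in the other spleens. Replicates 1, 3 and 4 of the labelled knockout PCB-153 group also had the lowest summed B cell counts of all spleens.

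The stretches of 250 bases before the RefSeq transcription start of 5 genes are printed because their products make up the best known platelet parts: the chemokines, the integrin alpha chain and the von Willebrand factor receptor. They are RefSeq sequences of GRCm38.p6, written 5′ to 3′ on the strand of the gene. Capitals mark matches on either strand to 3 motifs, which shared no bases here. The GATA motif was searched in 4 spellings, of which the first is AGATAA, the following spelling is AGATAG, the spelling with another opening letter is TGATAA, and the remaining spelling is TGATAG. The ETS motif was searched in the spelling AGGAAG and also in the spelling CGGAAG. The TATA motif was searched in the spelling TATAAA. Factors of the GATA and ETS families are known regulators of megakaryocyte genes.
Pf4: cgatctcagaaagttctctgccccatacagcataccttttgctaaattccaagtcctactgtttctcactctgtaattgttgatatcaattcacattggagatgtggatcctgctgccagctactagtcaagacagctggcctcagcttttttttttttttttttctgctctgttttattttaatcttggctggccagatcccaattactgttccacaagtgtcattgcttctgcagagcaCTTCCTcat
Ppbp: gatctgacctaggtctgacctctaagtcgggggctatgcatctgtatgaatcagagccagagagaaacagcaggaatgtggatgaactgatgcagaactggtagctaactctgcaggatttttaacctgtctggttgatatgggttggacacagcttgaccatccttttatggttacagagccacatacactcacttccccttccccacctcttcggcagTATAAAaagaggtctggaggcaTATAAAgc
Itga2b: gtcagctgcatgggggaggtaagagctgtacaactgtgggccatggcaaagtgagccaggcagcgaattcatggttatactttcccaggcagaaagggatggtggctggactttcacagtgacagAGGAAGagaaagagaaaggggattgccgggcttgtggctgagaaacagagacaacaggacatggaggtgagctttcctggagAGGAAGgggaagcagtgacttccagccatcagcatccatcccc
Gp1ba: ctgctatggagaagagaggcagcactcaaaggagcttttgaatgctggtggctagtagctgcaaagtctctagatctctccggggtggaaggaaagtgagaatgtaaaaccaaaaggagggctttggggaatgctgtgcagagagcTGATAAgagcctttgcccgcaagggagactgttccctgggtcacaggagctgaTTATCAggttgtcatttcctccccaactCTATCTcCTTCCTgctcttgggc
Gp9: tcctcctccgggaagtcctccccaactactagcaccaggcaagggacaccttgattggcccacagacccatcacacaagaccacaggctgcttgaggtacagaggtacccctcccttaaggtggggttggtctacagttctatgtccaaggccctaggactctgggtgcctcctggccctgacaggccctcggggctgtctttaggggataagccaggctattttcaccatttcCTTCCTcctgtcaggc
The Pf4 stretch lies at chr5:90772185-90772434 on the plus strand and holds 1 ETS match. The Ppbp stretch lies at chr5:90768268-90768517 on the plus strand and holds 2 TATAAA matches, which begin 30 and 8 bases before the start, and no GATA or ETS match. The Itga2b stretch lies at chr11:102469884-102470133 on the minus strand and holds 2 ETS matches. By the GENCODE M21 annotation this gene starts at 102470122, within the stretch. Most of the stretch and its 2 matches therefore lie after that start, though before the RefSeq start. The Gp1ba stretch lies at chr11:70638872-70639121 on the plus strand and holds 3 GATA matches and 1 ETS match. The Gp9 stretch lies at chr6:87777820-87778069 on the plus strand and holds 1 ETS match. Of 32851 mouse promoters read over the same length, 26.5% held a GATA match, 39.2% an ETS match and 12.4% a TATAAA match. These matches are a description of letters and not of bound sites. Gp1bb, with 1 GATA and 1 ETS match, and Treml1, with none, were also read, so 7 of the 9 genes had a RefSeq entry.

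Per kilobase of annotated exon, the chemokine messages were the most abundant of the 9. Averaged over the 19 spleens, Ppbp had 1544 ± 299.5 normalised reads per kilobase and Pf4 733 ± 146 (SD). Gp9 followed with 368 ± 45.3 and Itgb3 with 358.5 ± 54.7. These were followed by Itga2b with 205 ± 32.7, Treml1 with 136 ± 31.6, Gp1ba with 98.6 ± 14.2, Vwf with 72.2 ± 6.5 and Gp1bb with 48.2 ± 9.6 normalised reads per kilobase. Every Ppbp value lay above every Pf4 value, and every Pf4 value above those of the other 7 genes, while from Gp9 down each gene overlapped its neighbour in the order. By the GENCODE M21 annotation of GRCm38, Ppbp (chr5:90768518-90770063) and Pf4 (chr5:90772435-90773383) are neighbours, 2371 bases apart on the plus strand. Itga2b (chr11:102453297-102470122, minus strand), Itgb3 (chr11:104608000-104670476) and Gp1ba (chr11:70639122-70642036) share a chromosome, as do Gp9 (chr6:87778072-87779768) and Vwf (chr6:125546774-125686679). Gp1bb lies at chr16:18620317-18622403 on the minus strand and Treml1 at chr17:48359916-48367176. The per-kilobase ratio of Pf4 to Ppbp stayed between 0.41 and 0.56 in all 19 spleens. The integrin chains also kept a near constant ratio, since Itgb3 over Itga2b was 1.75 ± 0.11 per kilobase (SD, n = 19) and ranged from 1.56 to 1.95.

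Liver held little of these transcripts. Values here are RPM, the reads of a gene scaled to a common library total, because the liver and spleen tables were normalised separately. Ppbp had a median of 0.191 RPM in 20 livers, against 81.3 in 19 spleens. Treml1 had no read in 10 of the 20 livers and a highest value of 0.263 RPM, against 4.98 to 14.4 in spleen. Gp9 had no read in 3 livers and at most 0.202 RPM, against 11.5 to 18.7 in spleen. Pf4 had a median of 0.797 RPM in liver against 25.8 in spleen, and Gp1ba 0.325 against 14. Itgb3 had 4.43 against 105, Itga2b 4.11 against 53.7 and Vwf 5.04 against 57.5 RPM. The tissues were nearest for Gp1bb, with 0.569 RPM in liver against 5.25 in spleen. For each of the 9 genes the highest liver value lay below the lowest spleen value. Liver groups were not compared. Ppbp, Gp9 and Treml1 had between 0 and 13 reads per liver library. Itga2b had 34 to 121, Itgb3 44 to 166 and Vwf 41 to 203.

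**Figure D1:**
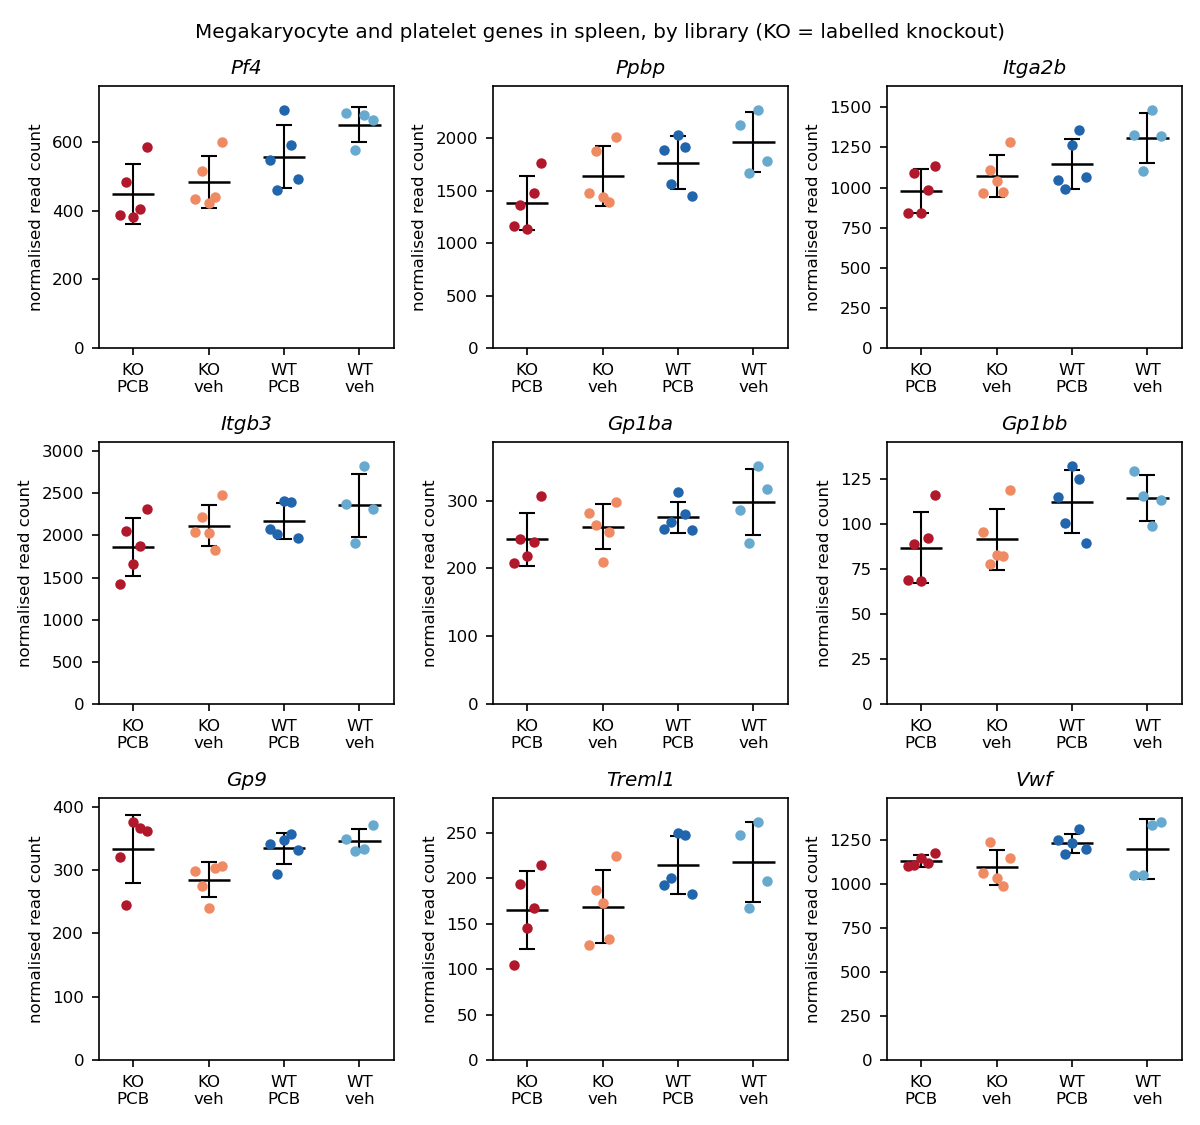
Normalised read count of each of the 9 genes in every spleen library (points), with the group mean (bar) and SD (whisker). From left to right in each panel are labelled knockout with PCB-153, labelled knockout with vehicle, wild type with PCB-153 and wild type with vehicle; neighbouring groups overlap, and at the same exposure the wild-type mean lies above the labelled knockout mean for all 9 genes.

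No gene of the 9 passed the limma test in any comparison of genotype label or exposure. All 9 genes had lower means in labelled knockout than in wild-type spleens under both exposures, although Gp9 with PCB-153 lay so near 0 (-0.01) that DESeq2 scaling turned its sign. A gene is called where its adjusted p is under 0.05. Fold changes are on the log2(normalised count + 1) scale from limma, with p-values adjusted over the 19058 genes tested. Because these are bulk spleens, fewer megakaryocytes or platelets and less RNA in each of them cannot be told apart. For 7 genes the order of the group means, from high to low, was wild-type vehicle, wild-type PCB-153, labelled knockout vehicle and labelled knockout PCB-153. Gp9 was lowest in the labelled knockout vehicle group, and Vwf was lowest there and highest in wild-type PCB-153.

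Among the chemokines, Pf4, platelet factor 4, had 387, 483, 382, 405 and 584 normalised reads in labelled knockout PCB-153 spleens. It had 433.5, 515.5, 424, 439 and 601 in labelled knockout vehicle spleens. It had 548, 459.5, 694, 592 and 492 in wild-type PCB-153 spleens and 684, 575, 678 and 664 in wild-type vehicle spleens. Of the labelled knockout vehicle libraries, only replicate 5 reached into the wild-type vehicle range. The log2 fold change of labelled knockout over wild type was -0.32 ± 0.13 with PCB-153 (SE, limma, adjusted p = 0.338) and -0.44 ± 0.13 with vehicle (adjusted p = 0.353). The authors' deposited table gives -0.43 for Pf4 with vehicle, with an adjusted p of 0.274.

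Ppbp, the precursor of neutrophil-activating peptide 2 and the most abundant of the 9 per kilobase, had 1163, 1362, 1135, 1473.5 and 1761 normalised reads in labelled knockout PCB-153 spleens. It had 1479, 1874, 1443, 1389 and 2015 in labelled knockout vehicle spleens. It had 1888, 1559, 2028, 1916 and 1445 in wild-type PCB-153 spleens and 2128, 1663, 2269 and 1786 in wild-type vehicle spleens. All neighbouring groups overlapped. With PCB-153 the log2 fold change of labelled knockout over wild type was -0.36, with a 95% interval of -0.64 to -0.09 (limma, adjusted p = 0.288). With vehicle it was -0.26, with an interval of -0.56 to 0.03.

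The integrin chains had the same order of group means as the chemokines. Itga2b, the alpha IIb chain and a marker of the megakaryocyte lineage, averaged 979 ± 136 normalised reads in labelled knockout PCB-153, 1074 ± 131 in labelled knockout vehicle, 1146 ± 157 in wild-type PCB-153 and 1310 ± 156 in wild-type vehicle spleens (SD, n = 5, 5, 5 and 4). Its log2 fold change of labelled knockout over wild type was -0.23 with PCB-153 (limma, adjusted p = 0.456) and -0.29 with vehicle (adjusted p = 0.42). Itgb3, the beta 3 chain, which also pairs with another alpha chain in other cells, averaged 1864 ± 343, 2117 ± 247, 2172 ± 211 and 2356 ± 375 in the same order of groups. Its changes were -0.23 with PCB-153 and -0.15 with vehicle, and both 95% intervals included 0. The lowest Itgb3 value of the 19 spleens, 1426, was in replicate 1 of labelled knockout PCB-153, and the highest, 2825, was in replicate 4 of wild-type vehicle.

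Of the von Willebrand factor receptor, Gp1ba, the ligand-binding chain, averaged 243 ± 38.9 normalised reads in labelled knockout PCB-153, 262 ± 33.4 in labelled knockout vehicle, 275.5 ± 22.9 in wild-type PCB-153 and 298 ± 48.5 in wild-type vehicle spleens (SD). Both genotype differences, -0.19 with PCB-153 and -0.18 with vehicle on the log2 scale, had intervals that included 0. Gp1bb, the beta chain linked to it, had 68.1 to 116 normalised reads in labelled knockout PCB-153, 77.7 to 119 in labelled knockout vehicle, 89.3 to 132 in wild-type PCB-153 and 99.0 to 130 in wild-type vehicle spleens. Its fold changes of labelled knockout over wild type were -0.38 with PCB-153 and -0.33 with vehicle (limma, adjusted p = 0.337 and 0.48). The Gp1bb value is uncertain, since 91.1% of its exonic bases overlap Sept5 and 41.5% overlap Gm49601, both on the same strand. Of its 50-base words, 90.6% occur in Sept5 or Gm49601. Reads of Gp1bb and these genes could therefore be split or dropped by the counting. Sept5, a septin gene, averaged 135 ± 24.1, 130 ± 17.6, 151 ± 18.9 and 152.6 ± 17.2 in labelled knockout PCB-153, labelled knockout vehicle, wild-type PCB-153 and wild-type vehicle spleens. Gp1bb lies on the chromosome of Nr1i2, 19.6 Mb away.

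Gp9, a small subunit of the same receptor, had another order of groups. It had 321, 246, 376.5, 366 and 362 normalised reads in labelled knockout PCB-153 spleens and 298, 275, 241, 304 and 307 in labelled knockout vehicle spleens. It had 341, 294.5, 347, 357 and 332 in wild-type PCB-153 spleens and 350, 331, 334 and 371 in wild-type vehicle spleens. Labelled knockout vehicle lay wholly below wild-type vehicle, by -0.29 ± 0.11 on the log2 scale (limma estimate and SE, adjusted p = 0.399). It was the 1 gene of the 9 without overlap between those groups, and 1.84% of all genes tested showed the same in that direction. With PCB-153 the genotype difference was -0.01, with a 95% interval of -0.23 to 0.20. The ratio of Gp9 to Gp1ba per kilobase was 4.32 ± 0.91 in labelled knockout PCB-153, 3.37 ± 0.23 in labelled knockout vehicle, 3.76 ± 0.34 in wild-type PCB-153 and 3.65 ± 0.57 in wild-type vehicle spleens (SD).

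Treml1, the activation receptor kept in alpha granules, varied most between libraries of a group, with a within-group SD of 0.32 on the log2 scale. It had 104 to 215 normalised reads in labelled knockout PCB-153, 126.5 to 225 in labelled knockout vehicle, 183 to 250.2 in wild-type PCB-153 and 167 to 262 in wild-type vehicle spleens. Its genotype differences were the widest in interval, -0.41 (-0.79 to -0.03) with PCB-153 and -0.38 (-0.78 to 0.03) with vehicle. Vwf varied least, with a within-group SD of 0.12. It averaged 1128 ± 31.6 in labelled knockout PCB-153, 1093 ± 99.6 in labelled knockout vehicle, 1229 ± 53.7 in wild-type PCB-153 and 1195 ± 169 in wild-type vehicle spleens (SD). Its log2 fold change of labelled knockout over wild type was -0.12 under either exposure, and both intervals included 0.

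**Figure D2:**
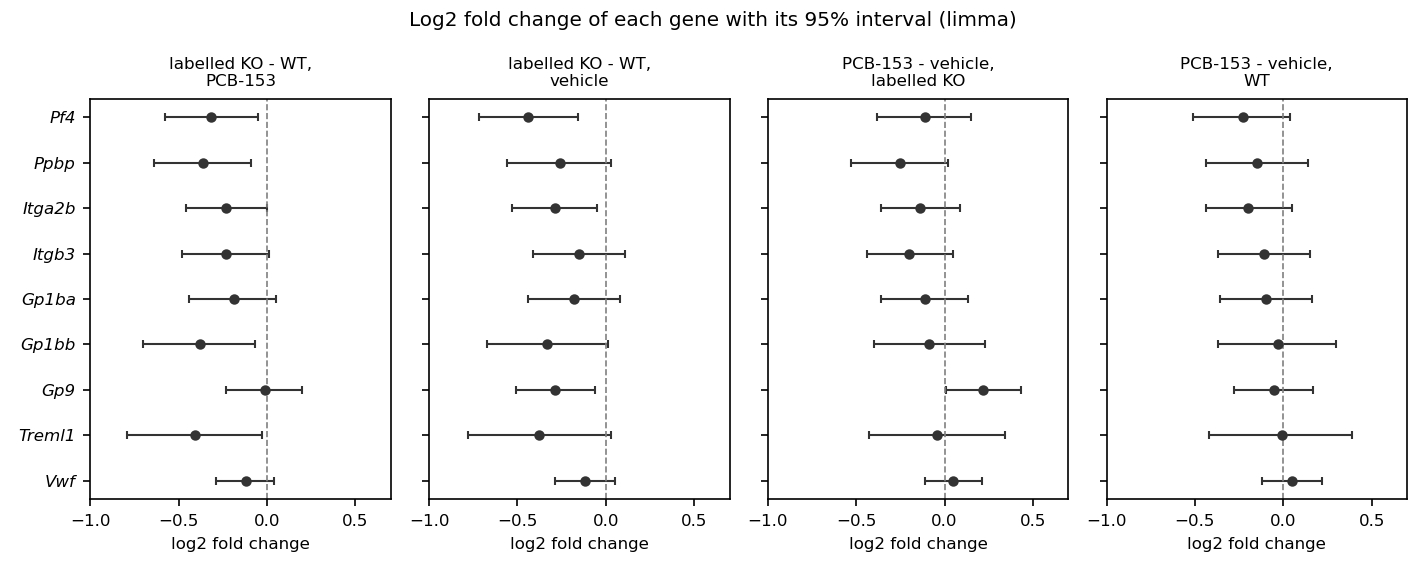
Log2 fold change of each gene (points) with its 95% interval (bars) from limma for labelled knockout minus wild type with PCB-153 and with vehicle, and for PCB-153 minus vehicle in labelled knockout and in wild type. All points of the left 2 panels lie below 0, from -0.41 to -0.01 with PCB-153 and from -0.44 to -0.12 with vehicle, while no gene was called in any panel.

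Counted over the list, labelled knockout against wild type with PCB-153 had a median log2 fold change of -0.23 for the 9 genes, and all 9 were lower. Without the 2 libraries with the most pancreatic RNA, replicates 1 and 4 of labelled knockout PCB-153, all 9 were still lower with a median of -0.17. Over all genes tested the median was -0.00 and 51.2% were lower. None of the 9 was called by limma, against a background of 0.157% of genes called. At an unadjusted p under 0.05, 5 of the 9 were lower with limma and 4 each with edgeR and DESeq2, and 5.3% of all genes were lower at that limit with limma. With vehicle the median of the 9 was -0.29 and all 9 were again lower, while over all genes the median was 0.01 and 48.2% were lower. Again none was called by limma, edgeR or DESeq2, and the background was 0.0315% of genes called with limma. The number lower at an unadjusted p under 0.05 was 3 with each tool, beside 4.45% of all genes with limma. The genotype comparisons of the 2 exposures share no library. Within each, most of the 9 genes vary together between libraries, and they were chosen with earlier results known. These counts therefore do not stand for separate results.

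Lists of other cell types also differed between the genotype labels, and their part in the result was not tested. None of the genes of these lists was called in either genotype comparison, beside 0.157% of all genes with PCB-153 and 0.0315% with vehicle. Macrophage genes were higher in labelled knockout than in wild type under both exposures, 11 of 11 with PCB-153 (median 0.22) and 11 of 11 with vehicle (median 0.26). T cell genes were lower in 7 of 7 cases with PCB-153 (median -0.21) and in 6 of 7 with vehicle (median -0.20). Other lists differed in sign between the exposures. Neutrophil genes were higher in 13 of 14 cases with PCB-153 (median 0.21) and lower in 12 of 14 with vehicle (median -0.69). Erythroid genes were higher in 12 of 12 cases with PCB-153 (median 0.20) and lower in 11 of 12 with vehicle (median -0.12). Cell division genes were higher in 11 of 12 cases with PCB-153 (median 0.11) and lower in 12 of 12 with vehicle (median -0.26). B cell genes were lower in 7 of 7 cases with PCB-153 (median -0.43) and had a median of -0.00 with vehicle. Summed B cell counts were 20875 to 35868 in labelled knockout PCB-153 and 35142 to 37248 in wild-type PCB-153 spleens. Summed neutrophil counts were 4653 to 6417 in labelled knockout vehicle and 6982 to 9548 in wild-type vehicle spleens. Endothelial genes, which bear on Vwf, had medians of 0.12 with PCB-153 and 0.14 with vehicle, and none of the 16 was called.

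The average of both genotype comparisons in the same fit was added after the data were seen. Pf4 then differed by -0.38 ± 0.09 on the log2 scale (limma estimate and SE, adjusted p = 0.0957), and no gene of the 9 was called, against a background of 0.136%. At an unadjusted p under 0.05, 8 of the 9 were lower with limma, 8 with DESeq2 and 7 with edgeR, beside 4% of all genes with limma. With limma Gp9 was the exception, with -0.15. Most of the 9 genes vary together between libraries and were chosen with earlier results known, so this count does not stand for separate results. The Pf4 call depended on the tool and on single libraries, and the fits that called it also called more genes in all than the 26 of the fit above. It was called with DESeq2 (-0.37, adjusted p = 0.0226), which called 251 genes. It was called without replicate 5 of labelled knockout vehicle (-0.42, limma, adjusted p = 0.0382), with 80 genes called, and without replicate 5 of labelled knockout PCB-153 (-0.43, adjusted p = 0.0302), with 41 genes called.

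PCB-153 was set against vehicle within each genotype. In labelled knockout spleens 7 of the 9 genes were lower with PCB-153 (median -0.11), as were 51.3% of all genes, and none was called, although 5.3% of all genes were. The Ppbp difference was -0.25, with a 95% interval of -0.53 to 0.02 (limma, adjusted p = 0.247). Gp9 differed in sign, at 0.22 ± 0.10 (SE, interval 0.01 to 0.43, adjusted p = 0.197). It was the 1 gene of the 9 higher at an unadjusted p under 0.05, beside 12.5% of all genes. Without replicate 2 of labelled knockout PCB-153, the lowest of that group, the Gp9 difference was 0.33 (limma, adjusted p = 0.0115) and it was the 1 member called, in a fit that called 3702 genes in place of 1010. The authors' deposited table gives 0.23 for Gp9, with an adjusted p of 0.12. Vwf had 0.05 (-0.11 to 0.21).

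In wild-type spleens 8 of the 9 genes were lower with PCB-153 than with vehicle (median -0.10), as were 47.7% of all genes. None was called, and the background was 0%, with 0 genes called by limma and by edgeR, 3 by DESeq2 and 727 at an unadjusted p under 0.05 with limma. None of the 9 reached an unadjusted p under 0.05 with any tool, while 1.45% of all genes were lower and 2.36% higher at that limit with limma. The difference furthest from 0 was that of Pf4, -0.23 (interval -0.51 to 0.04), and Vwf had 0.05. The interaction of genotype and exposure was within -0.10 to 0.27 for the 9 genes. It was furthest from 0 for Gp9, at 0.27 (interval -0.04 to 0.58, limma, adjusted p = 0.553), and none of the 9 was called, with 0% of all genes called by limma, 0 by edgeR and 34 by DESeq2. At an unadjusted p under 0.05 there were 1877 genes with limma, 6.02% of all below 0 and 3.83% above, and 0 of the 9. These intervals do not show that PCB-153 acts alike on the 9 genes in the 2 labelled genotypes.

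Most of the 9 genes varied together from library to library, and Gp9 and in part Vwf did so less. With group means removed, Pearson's r of log2 values over the 19 spleens was 0.92 for Itga2b with Itgb3, 0.93 for Itgb3 with Treml1 and 0.87 for Pf4 with Ppbp. Points share a library, its depth and its makeup, so these values are a description. Itgb3, Ppbp, Pf4, Itga2b, Gp1ba and Treml1 had a mean r with the other members between 0.63 and 0.70, Gp1bb 0.51, Vwf 0.40 and Gp9 0.15. Over all genes the median of the mean r with the members was 0.00. Summed over the 9 genes, the lowest library was replicate 1 of labelled knockout PCB-153 with 5618 and the highest was replicate 4 of wild-type vehicle with 9637.

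**Figure D3:**
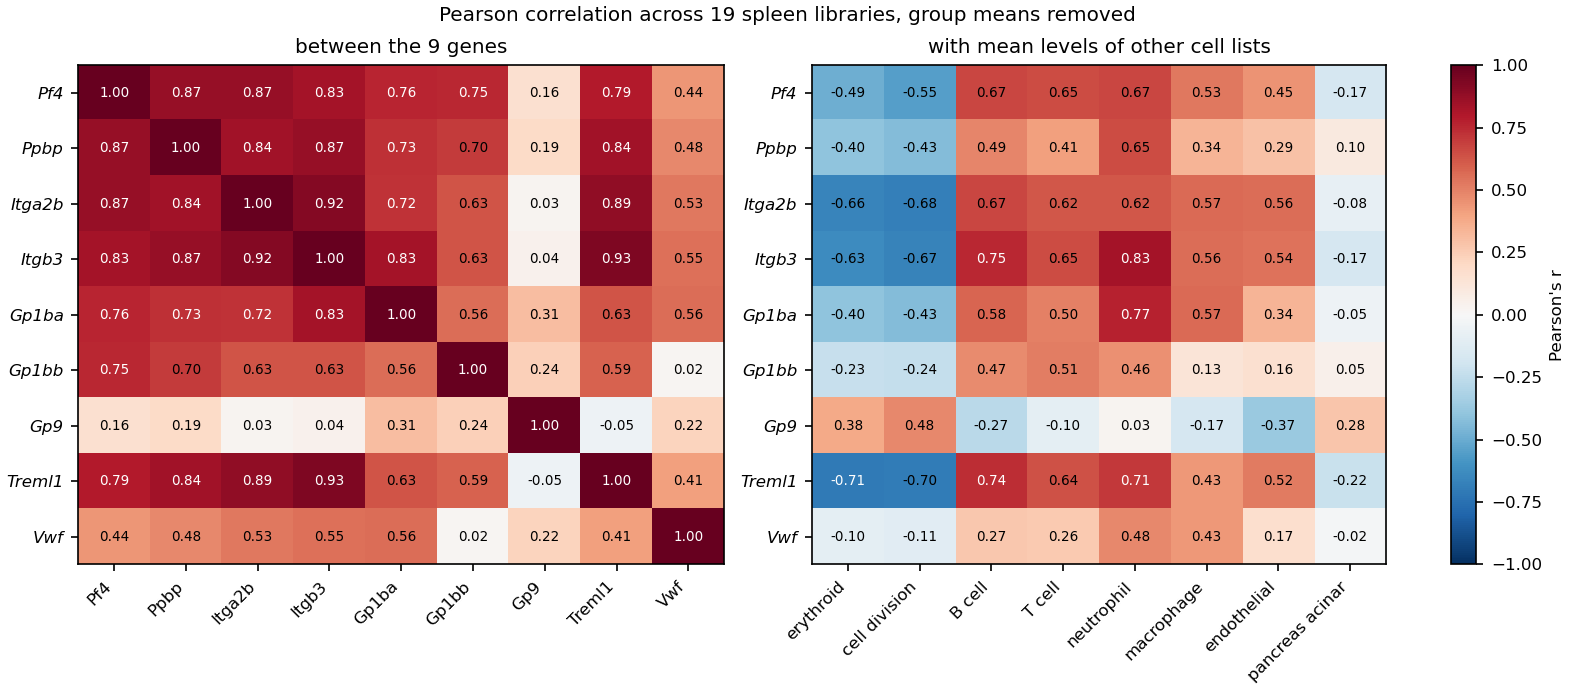
Pearson's r across 19 spleen libraries after removal of group means, among the 9 genes (left) and between each gene (rows) and the mean level of other cell type lists (columns, right). Gp9 stands apart on the left, with r from -0.05 to 0.31, and on the right has 0.48 with cell division genes where Treml1 has -0.70 and Vwf -0.11.

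Gp9 differed from the other members in what it varied with. Its r with the mean of the 12 cell division genes was 0.48 and with B cell genes -0.27. Treml1 had -0.70 and 0.74 with the same lists, Itga2b -0.68 and 0.67, and Itgb3 -0.67 and 0.75. Other members lay between, with -0.11 and 0.27 for Vwf and -0.24 and 0.47 for Gp1bb. Neutrophil genes had r of 0.83 with Itgb3, 0.77 with Gp1ba and 0.03 with Gp9. The pancreatic list had r between -0.22 and 0.28 with all 9.

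The 10 genes outside the members with the highest mean r to them included known megakaryocyte and platelet genes. Thbs1, the alpha granule protein thrombospondin 1, had a mean r of 0.66, Mmrn1, the granule protein multimerin 1, 0.65 and Alox12, the platelet-type 12-lipoxygenase, 0.64. The highest of all was Elane, neutrophil elastase of granulocyte precursors, at 0.71. Also among them were Gm10135 (0.68), Speg (0.67), Pla2g2d, a secreted phospholipase (0.66), Gm45867 (0.65) and Sspo (0.64). Next among the listed platelet genes were Gp6, the collagen receptor, ranked 28 with 0.62, and Tubb1, the beta-tubulin of platelets, ranked 36 with 0.61. Not all genes of the platelet lists varied with the members. The listed transcription factors ran from -0.51 for Gfi1b to 0.35 for Mef2c, with Tal1 at -0.43 and Gata1 at -0.40. The receptor gene P2ry1 had -0.13 and the signalling gene Rap1b 0.02.

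The wider platelet programme was read from 6 lists that hold none of the 9 members. For labelled knockout against wild type, none of their 60 genes was called, beside 0.157% of all genes with PCB-153 and 0.0315% with vehicle. Platelet surface receptors had 11 of 14 genes lower with PCB-153 (median -0.13) and 9 of 14 lower with vehicle (median -0.08). Among these, Gp6 had 112 ± 21.3 normalised reads in labelled knockout PCB-153, 146 ± 23.1 in labelled knockout vehicle, 168 ± 18.3 in wild-type PCB-153 and 174 ± 48.3 in wild-type vehicle spleens (SD), and its genotype difference with PCB-153 was -0.60 (limma, adjusted p = 0.14). Gp5, the remaining chain of the von Willebrand factor receptor, had -0.33 with PCB-153 and -0.43 with vehicle (limma, adjusted p = 0.336 and 0.362). The lists of granule proteins, platelet production, integrin signalling, transcription factors and eicosanoid enzymes had medians between -0.08 and 0.14 in these comparisons. In wild type, PCB-153 against vehicle left none of the 60 called, and neither did the interaction, beside 0% of all genes called by limma in each.

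In labelled knockout, 6 of the 60 genes were called for PCB-153 against vehicle, beside 5.3% of all genes tested. Of 11 integrin signalling genes, 2 fell. They were Syk, a tyrosine kinase also used by B cells (-0.50, limma, adjusted p = 0.0332), and Rasgrp2, an activator of Rap1 (-0.42, adjusted p = 0.0448). Of 10 transcription factors, Mef2c (-0.54, adjusted p = 0.0279) and Fli1 (-0.38, adjusted p = 0.0325) fell while Nfe2 (0.57, adjusted p = 0.0259) and Tal1 (0.53, adjusted p = 0.0351) rose. Mef2c and Fli1 are also expressed in lymphoid cells, and Nfe2 and Tal1 in erythroid precursors. No surface receptor, granule, platelet production or eicosanoid gene was called. In the same comparison 7 of 12 erythroid genes rose, such as Rhag (0.58, adjusted p = 0.0272) and Kel (0.54, adjusted p = 0.0295). So did 8 of 14 neutrophil genes, among them S100a8 (0.65, adjusted p = 0.0212), and 5 of 12 cell division genes, among them Cenpf (0.51, adjusted p = 0.0302), and 2 of 8 pancreatic genes. B cell genes fell in 5 of 7 cases, such as Ms4a1 (-0.60, adjusted p = 0.0212) and Cd79a (-0.64, adjusted p = 0.0212). Summed erythroid counts were 227450 to 294861 in labelled knockout PCB-153 and 151041 to 225985 in labelled knockout vehicle spleens, without overlap. These calls rest on few libraries. With single libraries of the 2 groups left out, Rasgrp2 was called in 2 of 10 fits and Nfe2 in 4. Syk, Fli1, Mef2c and Tal1 were each called in 3 of the 10. Without replicates 1 and 4 of labelled knockout PCB-153, the 2 with the most pancreatic RNA, none of the 6 platelet-list genes was called and all kept their sign, with Nfe2 at 0.48 (limma, adjusted p = 0.171), Tal1 at 0.32, Fli1 at -0.21, Mef2c at -0.39, Syk at -0.31 and Rasgrp2 at -0.22. Of all 33 list genes called in this comparison, 7 were still called in that fit. These were 7 of the 8 neutrophil genes, among them S100a8 at 0.79 (limma, adjusted p = 0.0148). The 2 called pancreatic genes fell below the filter on low values in that fit and were not tested. The count over all genes was 25 in place of 1010, and leaving out single libraries gave 10 to 3702.

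**Figure D4:**
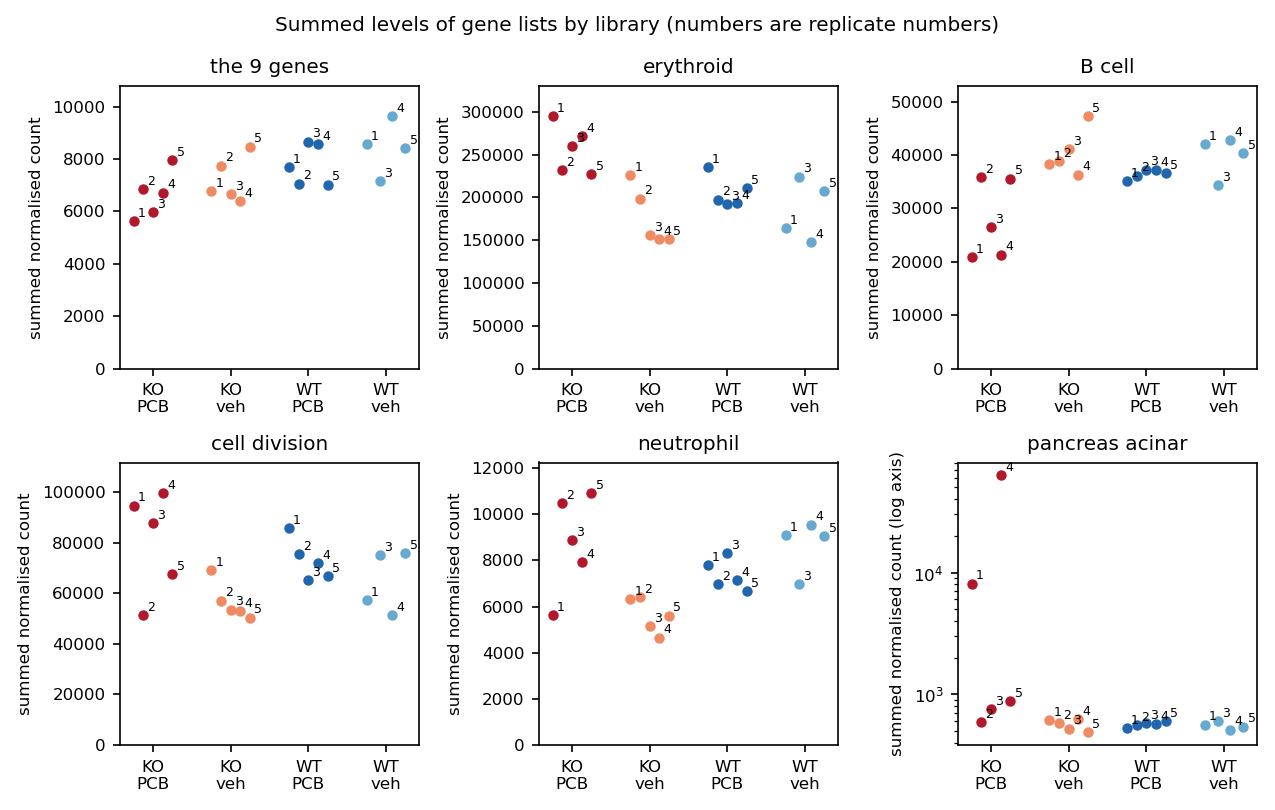
Summed normalised read counts of the 9 genes and of 5 other lists in each spleen library, with replicate numbers beside the points (pancreatic list on a log axis). In the labelled knockout PCB-153 group, replicates 1, 3 and 4 have B cell sums of 20875 to 26479, below every other library, and replicates 4 and 1 have pancreatic sums of 62915 and 8119.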

How the data were processed

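Per the labels' protocols, RNA of frozen tissue was made into TruSeq libraries and run on a HiSeq4000, each tissue in its own lane. Both a stranded and an unstranded kit are named, and for the strand setting of featureCounts the sources used here give no value. Tools listed in the submitters' processing notes are FastQC, STAR 2.6.0, featureCounts and DESeq2 as version 3.8, with build mm10. The deposited signal is 1 table of normalised counts for each tissue, made by the authors from reads scaled by 1 size factor per library. Dividing by that step returned whole reads, within 0.05, for 100% of values. The authors also deposited log2 fold changes and p-values of their own DESeq2 comparisons; the table of labelled knockout against wild type with PCB-153 holds only genes with an adjusted p under 0.05 and lists none of the 9. Date-like entries in place of 26 spleen symbols were restored. Every per-sample column matched a label.

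Groups follow the sample titles. A gene with a mean of at least 10 entered the test, on the scale log2(value + 1), in limma 3.58.1 in R 4.3.3 (trended eBayes, 1 fit over the 4 groups, two-sided, Benjamini-Hochberg adjustment), and a gene is called, rose or fell at an adjusted p under 0.05. This scale understates changes of low genes. Alternatives were pseudocounts of 0.5 and 5, no filter, a minimum mean of 50, quantile normalisation, the compared groups only, a replicate block, each library left out, and edgeR 4.0.16 (quasi-likelihood, TMM) and DESeq2 1.42.0 on recovered reads. The averaged genotype contrast and the fit without 2 libraries were added after seeing the data. The fit was tested on simulated data. The median standard error was 0.123 to 0.130 for pairs of groups, and replicates differed by more than counting error (chi-square per degree of freedom at least 4.68).

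The members and lists were chosen with earlier results of these data known. Named are all 9 members, Nr1i2, up to 4 called genes of a list with the smallest p, the 10 genes most like the members, and defining genes of other cell types that moved with them; Gp5, Gp6, Tubb1, Sept5, Mpo and Prtn3 were named after their values were seen. A gene that the rule names is not reported here. Exon lengths and overlaps are from GENCODE M21 (GRCm38), and promoters from RefSeq.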

Additional observations from a re-analysis of the deposited data

How the results depend on the processing

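No member was called in the genotype comparisons, in PCB-153 against vehicle in wild type or in the interaction under any alternative. With vehicle all 9 members stayed lower in labelled knockout in 29 of 29 alternatives, with medians from -0.34 to -0.22. With PCB-153 this held in 26 of 29, and in the other 3 Gp9 turned to above 0, with 0.0041 in DESeq2 and a range of -0.0618 to 0.0914 over single left-out libraries. The count of members called was 0 to 1 over left-out libraries for PCB-153 against vehicle in labelled knockout, where Gp9 was called without replicate 2 of the PCB-153 group, in a fit that called 3702 genes. For the averaged genotype contrast it was 1 (Pf4) with DESeq2 and 0 to 1 over left-out libraries.

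Counts over all genes were more sensitive. PCB-153 against vehicle in labelled knockout called 1010 genes, against 2027 with DESeq2, 184 in the fit of the compared groups only, 232 without a filter and 10 to 3702 with 1 library left out. Labelled knockout against wild type with PCB-153 called 30, against 228 with DESeq2, 65 with edgeR, 14 with the compared groups only, 83 without the 2 libraries richest in pancreatic RNA and 10 to 119 over left-out libraries. With vehicle it called 6, against 39 with DESeq2, 3 at a minimum mean of 50 and 4 to 22 over left-out libraries. The averaged contrast called 26, against 251 with DESeq2, 196 without the 2 libraries and 12 to 80 over left-out libraries. The interaction called 34 with DESeq2 and 6 without the 2 libraries, and PCB-153 in wild type 3 with DESeq2. The cause was not tested.

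Same-numbered libraries had correlations of deviations between -0.19 and 0.27. Libraries with different numbers were not compared in this way, so these values cannot decide whether the numbers pair the libraries. With the replicate block, members called were 0 in every comparison and genes called were 813 for PCB-153 against vehicle in labelled knockout, 18 for labelled knockout against wild type with PCB-153, 6 with vehicle and 20 for the averaged contrast. The block gave Gp9 0.0026 for PCB-153 in wild type and Vwf 0.006 for the interaction, both of the opposite sign.

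Other signs that turned belonged to values near 0 and none was called. For the interaction, DESeq2 gave 0.0107 for Gp1ba and 0.0031 for Vwf, and quantile normalisation gave 0.0216 for Gp1ba and 0.0168 for Treml1. Without the 2 libraries richest in pancreatic RNA the interaction was 0.0669 for Gp1ba, 0.0099 for Gp1bb, 0.0264 for Itgb3, 0.1525 for Treml1 and 0.0165 for Vwf, and Treml1 had 0.1398 for PCB-153 in labelled knockout. With 1 library left out the interaction ranged from -0.0961 to 0.0967 for Gp1ba, -0.1632 to 0.0463 for Gp1bb, -0.0054 to 0.1367 for Itga2b, -0.178 to 0.0105 for Itgb3, -0.1368 to 0.1226 for Treml1 and -0.0632 to 0.0593 for Vwf. PCB-153 against vehicle in labelled knockout ranged from -0.1969 to 0.0125 for Gp1bb and -0.1495 to 0.1099 for Treml1. In wild type it ranged from -0.1009 to 0.045 for Gp1bb, -0.1332 to 0.0828 for Treml1 and -0.01 to 0.1125 for Vwf. Gp1bb, with 61 to 146 reads per library, was the gene most limited by depth.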

Other observations

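Granulocyte genes were not among the platelet lists, yet several ranked close to the 9 genes in their variation between spleens. With group means removed over 19 libraries, the mean r with the members was 0.71 for Elane, 0.60 for Mpo, encoding myeloperoxidase, ranked 49, and 0.56 for Prtn3, encoding proteinase 3, ranked 138. Elane averaged 184 ± 42.0 normalised reads in labelled knockout PCB-153, 116 ± 23.4 in labelled knockout vehicle, 152 ± 29.6 in wild-type PCB-153 and 188 ± 26.6 in wild-type vehicle spleens (SD, n = 5, 5, 5 and 4). For PCB-153 against vehicle in labelled knockout, Elane was higher by 0.66 on the log2 scale (limma, adjusted p = 0.0308) and, without replicates 1 and 4 of the PCB-153 group, by 0.80 (adjusted p = 0.118), while Pf4 had -0.11 (adjusted p = 0.618).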
